A study of Mus musculus with 4 samples.

Results

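H2-Q7, H2-M2, Gsdmd, Mzb1 and Il2 are 5 mouse genes of immune recognition and inflammatory signalling, followed here in the m6A-bound and the unbound RNA of brown preadipocytes from mice with a conditional knockout (cKO) of EP3, a receptor for prostaglandin E2, and from control mice. They were found through the transcript accession printed beside each array probe. Of 60691 distinct array probes, 50 carried such an accession, 45 of these matched a gene symbol, and 5 belonged to these genes, 1 probe per gene with 10 spots each. The rule rests on gene identity and uses no measured value, but the genes were chosen with earlier results of these data known.

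The EP3 cKO pool came from mice of genotype Myf5CreEP3F/F and the control pool from EP3F/F mice, so both carried the floxed EP3 alleles and the pools differed by Cre under Myf5, a driver of the skeletal muscle and brown fat lineage. Mice were 8 weeks old, the IP samples are labelled male, and each genotype was 1 sample pooled from approximately 30 animals. Cells were sorted as negative for lineage markers and positive for CD29, CD34 and Sca1. RNA bound by an antibody against N6-methyladenosine (m6A) is the IP sample, carried by Cy5, and the RNA that stayed in the supernatant is the Sup sample, carried by Cy3, which gives 4 samples on 2 arrays. With 1 array per genotype there is no replicate, no test and no p-value below, and every SD is the spread of repeated spots of 1 probe on the same array. Deletion of EP3 could not be checked here, since none of the named probes with a gene symbol belongs to Ptger3, the gene of EP3.

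On assembly GRCm38.p6, H2-Q7 lies on chromosome 17 at 35439140 to 35443773 and H2-M2 on the same chromosome at 37480851 to 37483554. Gsdmd lies on chromosome 15 at 75862144 to 75867408, Mzb1 on chromosome 18 at 35647265 to 35650266 and Il2 on chromosome 3 at 37120713 to 37125954. The exon or UTR that each probe binds was not looked up here, since the files give no probe sequence. Nor could it be checked whether the H2-Q7 or H2-M2 probe also binds other class I transcripts, which are close in sequence.

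N6-methyladenosine is an internal methyl mark of messenger RNA, placed mainly by the METTL3 and METTL14 complex and read by YTH-domain proteins that influence the decay and translation of the transcript. MHC class I molecules display peptides at the cell surface with beta-2-microglobulin. H2-Q7 and H2-M2 are nonclassical members of this family. H2-Q7 belongs to the Q region, where it encodes the Qa-2 antigen, and H2-M2 to the M region of the same complex. Gsdmd encodes gasdermin D, which inflammatory caspases cleave so that its N-terminal part forms pores in the plasma membrane, the step that ends in pyroptosis. Mzb1 encodes a chaperone-like protein of the endoplasmic reticulum in B and plasma cells, where it aids immunoglobulin assembly, and Il2 encodes the T cell growth factor interleukin-2, made chiefly by activated T cells.

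The start regions of the class I pair are printed because both genes had nearly the same m6A difference below. That value was not particular to the pair. Among the other named genes Carhsp1 had -0.52, Nup50 -0.51 and Tm9sf1 -0.50, and the spots of Gsdmd overlapped those of both class I genes. A link between start regions and m6A difference was not tested. Each window runs from 250 bases before the start site used in the RefSeq table over 50 bases of transcript (chr17:35438905-35439204, plus strand, for H2-Q7 and chr17:37483505-37483804, minus strand, for H2-M2, GRCm38.p6). For H2-M2 that site is the gene boundary given above, and for H2-Q7 it is 35439155, which lies 15 bases inside the boundary. Capitals mark matches, on either strand, to GGGNNTTCC (a kappa-B-like element), GAANNGAAA (an interferon-response-like element), TGATGAC (a cAMP-response-like element) and CCAAT, motifs that were picked after the windows had been read.
H2-Q7: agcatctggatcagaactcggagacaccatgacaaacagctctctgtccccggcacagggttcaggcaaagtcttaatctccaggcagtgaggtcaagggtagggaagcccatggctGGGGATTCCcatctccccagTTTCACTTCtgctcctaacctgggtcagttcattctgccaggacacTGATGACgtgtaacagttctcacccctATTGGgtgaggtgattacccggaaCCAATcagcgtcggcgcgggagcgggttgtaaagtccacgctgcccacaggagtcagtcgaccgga
H2-M2: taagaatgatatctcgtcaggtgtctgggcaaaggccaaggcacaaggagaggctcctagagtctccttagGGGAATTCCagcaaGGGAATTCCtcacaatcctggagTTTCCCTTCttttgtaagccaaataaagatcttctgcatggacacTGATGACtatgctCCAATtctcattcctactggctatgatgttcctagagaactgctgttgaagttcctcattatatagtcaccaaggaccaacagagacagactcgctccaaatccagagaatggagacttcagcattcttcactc
In both windows the elements stand in the same order. From the first base of the last kappa-B-like match to that of the interferon-response-like match there are 20 bases in H2-Q7 and 23 in H2-M2, and from there to TGATGAC there are 46 in H2-Q7 and 45 in H2-M2. Of 32851 RefSeq windows of this length, 5.82% hold GGGNNTTCC, 7.52% GAANNGAAA, 3.23% TGATGAC and 37.4% CCAAT. The first 3 stand together in 12 windows (0.0365%), both printed windows among them. Because the motifs were picked from the printed windows, their presence in both was set by that choice. These shares, the order and the spacing are therefore no test of a likeness between the genes. The Il2 window held TGATGAC on its reverse strand and TATAAA, which 13.6% of all windows hold, and no GGGNNTTCC, GAANNGAAA or CCAAT. These matches are letters in a window and no measurement of factor binding.

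H2-Q7, H2-M2 and Gsdmd were well above background in every spot of all 4 samples, 10 of 10 each, while Mzb1 and Il2 stood close to the detection limit. H2-Q7 processed signals had a lowest, median and highest spot of 40717, 41699 and 42436 in cKO IP, against 51639, 52636 and 53635 in control IP. In Sup the H2-Q7 spots lay at 30009, 31128 and 34222 in cKO, against 25137, 27009 and 28811 in control. Before scaling, H2-Q7 was thus lower in cKO IP and higher in cKO Sup, with no overlap of spots in either. A spot with an outlier flag in any channel of either array was left out of both arrays, which removed 2 spots of H2-Q7, 0 of H2-M2, 1 of Gsdmd, 5 of Mzb1 and 0 of Il2.

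H2-M2 spots lay at 14999, 15290 and 15587 in cKO IP, against 21505, 22124 and 22638 in control IP (lowest, median and highest of 10). In Sup they lay at 12786, 13299 and 13657 in cKO, against 12413, 13148 and 14322 in control. The H2-M2 IP spots were separate, while the processed Sup spots of both arrays overlapped before scaling. Gsdmd spots lay at 5631, 5893 and 6209 in cKO IP, against 6021, 6334 and 6519 in control IP, so the IP ranges overlapped. Its Sup spots lay at 5047, 5355 and 5791 in cKO, against 3866, 4338 and 4819 in control, so every cKO spot was brighter.

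Mzb1 was well above background in 9 of 10 cKO IP spots and 10 of 10 control IP spots, and in 10 of 10 cKO Sup spots and 8 of 10 control Sup spots. Its 5 unflagged spots had a lowest, median and highest signal of 78.0, 102 and 114 in cKO IP, against 69.2, 94.0 and 124 in control IP. In Sup they lay at 55.3, 73.2 and 91.8 in cKO, against 78.1, 81.6 and 87.0 in control. The ranges of both genotypes overlapped in each fraction. For scale, the 308 negative control spots had a median signal of 10.9 in cKO IP, 10.7 in control IP, 7.49 in cKO Sup and 8.92 in control Sup. Their 99th percentile was 85.7 in cKO IP, 64.0 in control IP, 12.7 in cKO Sup and 17.2 in control Sup.

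Il2 was well above background in 5 of 10 cKO IP spots and 4 of 10 control IP spots, and in 9 of 10 cKO Sup spots and 7 of 10 control Sup spots. In IP the spots lay at 40.5, 53.7 and 81.9 in cKO, against 11.2, 50.3 and 74.3 in control. In Sup they lay at 37.1, 54.6 and 69.2 in cKO, against 29.5, 57.0 and 83.8 in control. Only 3 of 10 spots (30%) passed in all 4 samples, short of the share of 0.5 set for a usable probe, so no m6A ratio is given for Il2. The 99th percentile of the negative controls was exceeded by 0 of 10 cKO IP spots and 2 of 10 control IP spots, and by 10 of 10 spots in both cKO Sup and control Sup. The spot ranges of both genotypes overlapped in IP and in Sup, so no Il2 difference beyond the spot scatter was seen at this signal.

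**Figure D1:**
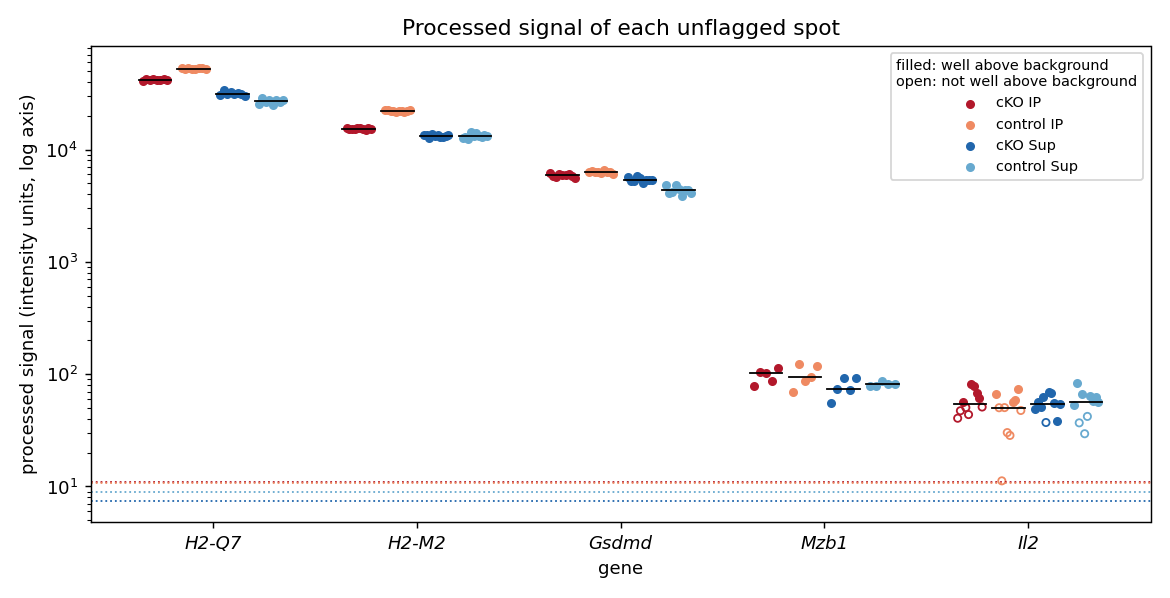
Processed signal (intensity units, log axis) of every unflagged spot of the 5 genes in cKO IP, control IP, cKO Sup and control Sup, with black bars at the median, open circles for spots not well above background and dotted lines at the median of the negative control spots in each sample. H2-Q7, H2-M2 and Gsdmd show filled circles throughout, and Il2 mixes filled and open circles in all 4 samples.

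Mzb1 and Il2 were the only B, plasma or T cell genes among the named probes looked up, and their signals are those given above. Further lists of MHC class I presentation, pyroptosis, IL-2 signalling, B and plasma cells, T and NK cells, myeloid cells, interferon-induced genes and brown preadipocyte markers together hold 77 genes, the 5 genes described here not among them, and 0 of the 77 have a named probe with a matched symbol. Probes without a symbol were not searched. The sorted cell type was therefore not checked against its markers, and the part of other cell types in the signals was not tested. In pooled sorted cells fewer cells of a type and less RNA per cell cannot be told apart.

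The first comparison asked how strongly each transcript was drawn into the m6A-bound fraction. Each named probe had 10 spots on an array and every other array probe a single spot. Shares over all usable probes therefore rest almost wholly on values not averaged over spots. Signals were first set relative to the channel's median across the 43838 usable probes (72.2% of all). On that scale the m6A ratio, log2(IP/Sup), of H2-Q7 was 0.40 ± 0.05 in cKO and 0.95 ± 0.07 in control (SD, n = 8 spots), which puts IP at 1.32-fold of Sup in cKO and at 1.93-fold in control, relative to the median probe. H2-M2 stood at 0.20 ± 0.04 in cKO and 0.72 ± 0.07 in control (SD, n = 10 spots). Gsdmd stood at 0.12 ± 0.05 in cKO and 0.53 ± 0.11 in control (SD, n = 9 spots), and Mzb1 at 0.34 ± 0.16 in cKO and 0.22 ± 0.36 in control (SD, n = 5 spots). All 4 averages were above 0 on both arrays. In the authors' deposited table as given, the cKO ratios were all below 0, at -0.48 for H2-Q7, -0.67 for H2-M2, -0.74 for Gsdmd and -0.51 for Mzb1, so the sign of a ratio rests on the scale. Each ratio also carries the dye behaviour of its own probe, because IP is Cy5 and Sup is Cy3 on both arrays.

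The main comparison asked how the m6A ratio went with genotype. H2-Q7, H2-M2 and Gsdmd had a lower ratio in cKO in 12 of 13 settings of the processing, scaling to ERCC spike-in probes being the exception, and Mzb1 had no direction beyond its spot scatter. Some of these settings repeat the reported values or differ by a constant per channel, so they are not 13 separate checks. Each difference was under 2-fold in the reported setting. H2-Q7 spots had ratios of 0.30, 0.42 and 0.47 in cKO, against 0.84, 0.95 and 1.05 in control (lowest, median and highest). This gives an m6A difference, cKO minus control, of -0.55 ± 0.06 (SD, n = 8 spots), a ratio 1.46-fold lower in cKO. H2-M2 spots had ratios of 0.15, 0.21 and 0.26 in cKO, against 0.61, 0.71 and 0.82 in control, and a difference of -0.52 ± 0.08 (SD, n = 10 spots), 1.43-fold lower. The class I pair differed from each other by 0.03 in the difference, less than either spot SD, while their ratios stood 0.20 apart in cKO and 0.23 apart in control.

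Gsdmd spots had ratios of 0.07, 0.12 and 0.24 in cKO, against 0.38, 0.51 and 0.74 in control, and a difference of -0.40 ± 0.08 (SD, n = 9 spots), 1.32-fold lower. For H2-Q7, H2-M2 and Gsdmd every cKO spot lay below every control spot, 3 of the 4 usable genes, where 39% of the 41 named usable genes did so, and 0 of the 4 lay wholly above, where 17.1% of the named usable genes did so. Mzb1 spots had ratios of 0.15, 0.31 and 0.51 in cKO, against -0.21, 0.19 and 0.65 in control. Its difference of 0.11 ± 0.36 (SD, n = 5 spots) was smaller than the spot SD, with 2 of 5 spots below 0. None of the 4 genes (0 of 4) reached a 2-fold difference in either direction, a size that 5.28% of all usable probes reached, 3.29% lower and 1.99% higher in cKO. Nearly all of those probes had a single spot, while the 4 genes are means over spots, so the comparison is not like with like.

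**Figure D2:**
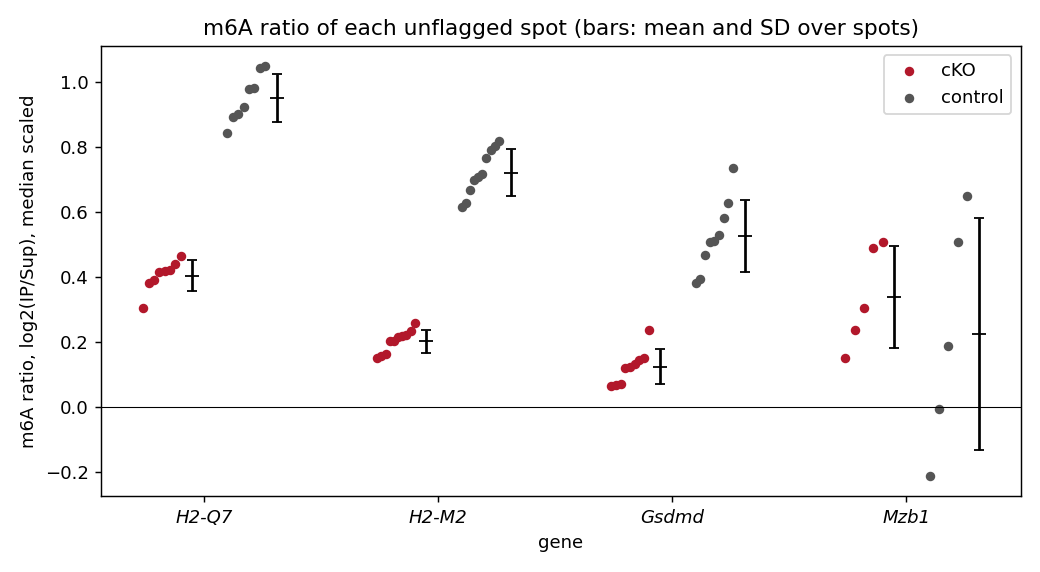
m6A ratio, log2(IP/Sup) after median scaling, of every unflagged spot in cKO and control for the 4 usable genes, with bars for the mean and SD over spots. On this scale the cKO spots of H2-Q7, H2-M2 and Gsdmd lie below all their control spots, and those of Mzb1 fall within the control range.

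Among all usable probes, 12.4% had a lower m6A difference than H2-Q7, 13.4% than H2-M2, 18.1% than Gsdmd and 56.2% than Mzb1. Nearly all of these probes had a single spot, so means over spots are placed here among values with more spot scatter. The 4 genes had a median difference of -0.46, with 3 below 0 and 1 above; the 41 named usable genes had a median of -0.15, with 26 below and 15 above, and all usable probes a median of 0.04, with 46.0% below 0. Probes with a high ratio in control tended to have a lower difference. In the tenth of control ratios that holds H2-Q7 the median difference was -0.15 and the quartiles -0.52 and 0.19, with 23.5% of probes below H2-Q7. In the tenth that holds H2-M2 and Gsdmd the median was -0.13 and the quartiles -0.46 and 0.17, with 21.2% below H2-M2 and 27.9% below Gsdmd. Bright probes showed the opposite tendency. In the tenth of usable probes with the strongest mean signal, which holds H2-Q7 and H2-M2, the median difference was 0.16 and the quartiles -0.10 and 0.44, and 7.12% of probes lay below H2-Q7 and 7.71% below H2-M2.

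**Figure D3:**
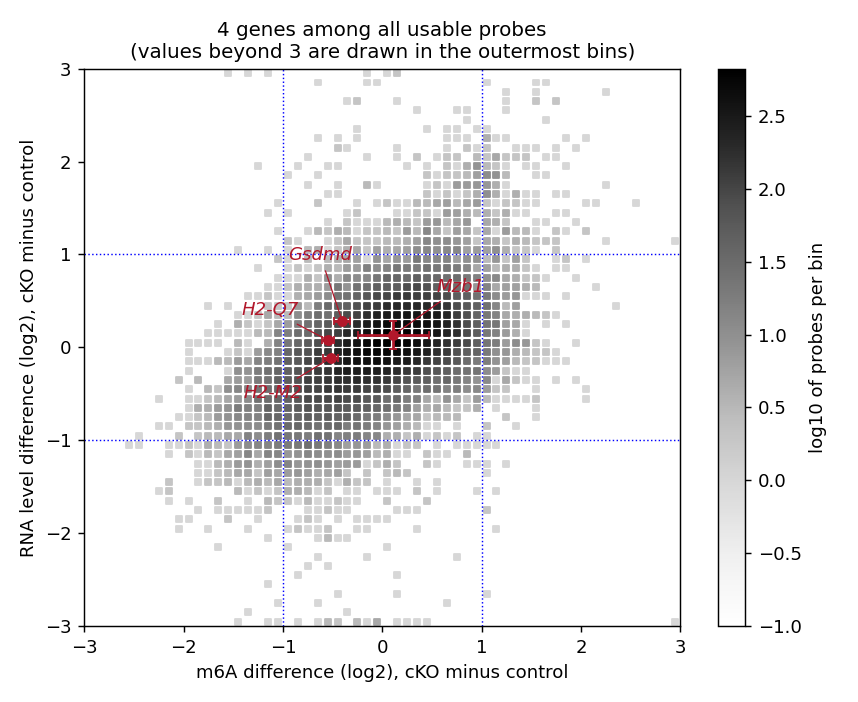
m6A difference against RNA level difference (both log2, cKO minus control) for the 43838 usable probes, shaded by the log10 number of probes per bin, with the 4 usable genes in red (bars: SD over spots) and dotted lines at 2-fold. H2-Q7, H2-M2 and Gsdmd sit left of the centre at -0.55, -0.52 and -0.40, inside the 2-fold lines, and Mzb1 sits near the centre with a wide bar.

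The lower ratios of cKO were split differently between the fractions, as measured against the median of each channel, and another scale shifts all genes of a channel alike. For H2-Q7 the IP difference was -0.13 ± 0.03 and the Sup difference 0.42 ± 0.05 (SD, n = 8 spots), so on this scale most of its m6A difference lay in Sup. In the authors' deposited table as given the greater part lay in IP instead. There H2-Q7 stood at 3.13 in cKO IP and 3.76 in control IP, and at 3.61 in cKO Sup and 3.23 in control Sup (log2). For H2-M2 the IP difference was -0.33 ± 0.03 and the Sup difference 0.19 ± 0.05 (SD, n = 10 spots), the greater share in IP. For Gsdmd both were above 0 on this scale, with 0.10 ± 0.04 in IP and 0.51 ± 0.05 in Sup (SD, n = 9 spots). In the authors' table its IP was lower in cKO, at 0.29 against 0.71 in control (log2). Mzb1 had 0.19 ± 0.20 in IP and 0.08 ± 0.26 in Sup (SD, n = 5 spots), neither beyond its spot SD.

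No IP difference (0 of 4) and no Sup difference (0 of 4) reached 2-fold. Among all usable probes 7.89% reached it in IP, 4.51% lower and 3.37% higher, and 1.62% in Sup, 0.623% lower and 1% higher. In Sup, every scaled cKO spot of H2-Q7, H2-M2 and Gsdmd lay above every control spot, 3 of 4 genes, against 26.8% of the named usable genes. By size, 90.2% of all usable probes had a lower Sup difference than H2-Q7 and 93.5% a lower one than Gsdmd, which had the second highest of the 41 named usable genes. In IP the cKO spots lay wholly below control for H2-Q7 and H2-M2, 2 of 4 genes, against 43.9% of the named usable genes, and wholly above it for 0 of 4, against 22%. Of all usable probes, 32.8% had a lower IP difference than H2-Q7 and 21.6% a lower one than H2-M2. On the median scale, a lower IP with a higher Sup was seen in 2 of the 4 genes (H2-Q7 and H2-M2), in 12 of the 41 named usable genes (29.3%) and in 7467 of all usable probes (17.0%).

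**Figure D4:**
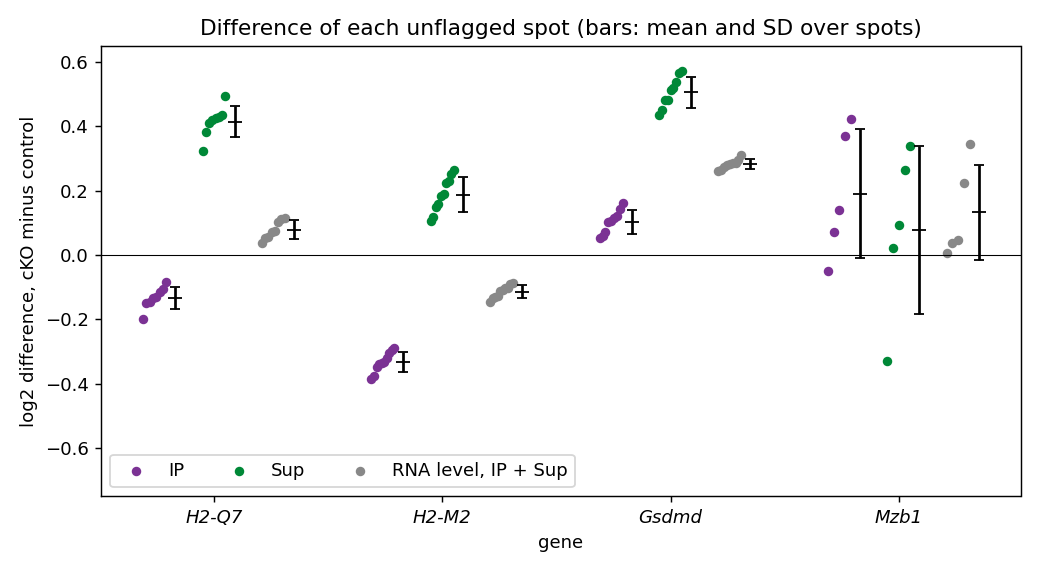
Log2 difference, cKO minus control, of every unflagged spot in IP, in Sup and in the RNA level (IP + Sup) for the 4 usable genes, with bars for the mean and SD over spots. With each channel scaled to its median, Sup lies above 0 for H2-Q7, H2-M2 and Gsdmd, while IP lies below 0 for the class I pair and above 0 for Gsdmd.

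The last comparison asked how the RNA level, taken as log2(IP + Sup), went with genotype. Gsdmd spots had scaled RNA levels of 4.73, 4.76 and 4.85 (log2) in cKO, against 4.43, 4.49 and 4.57 in control. Its RNA level difference was 0.28 ± 0.02 (SD, n = 9 spots), 1.22-fold higher in cKO. H2-Q7 spots lay at 7.43, 7.47 and 7.54 in cKO, against 7.36, 7.39 and 7.43 in control, a difference of 0.08 ± 0.03 (SD, n = 8 spots), with its lowest cKO spot only just above the highest control spot. On this scale the class I pair stood on opposite sides of 0, as in 7 of 13 settings, while both lay below 0 in 5 and both above 0 in 1. H2-M2 spots lay at 6.08, 6.12 and 6.13 in cKO, against 6.19, 6.22 and 6.28 in control, a difference of -0.11 ± 0.02 (SD, n = 10 spots). Mzb1 spots lay at -1.63, -1.21 and -1.01 in cKO, against -1.67, -1.42 and -1.22 in control, a difference of 0.13 ± 0.15 (SD, n = 5 spots), within its spot SD. All 5 of 5 Mzb1 spots had a difference above 0, the lowest at 0.008.

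The cKO spots lay wholly above control for Gsdmd and H2-Q7, 2 of 4 genes, where 24.4% of the named usable genes did so, and wholly below it for H2-M2, 1 of 4, where 43.9% did so. No gene (0 of 4) reached 2-fold, as 3.6% of all usable probes did, 1.87% lower and 1.73% higher. Of all usable probes, 78.3% had a lower RNA level difference than Gsdmd, 53.9% than H2-Q7, 30.7% than H2-M2 and 61.1% than Mzb1. The IP and Sup fractions carry different dyes, and each was divided by its own channel median before the sum, whatever its share of the RNA. Their sum therefore only approximates total RNA. For H2-Q7 and H2-M2 the IP difference lay below 0 and the Sup difference above 0, so the sign of the sum depends on this weighting. For Gsdmd both lay above 0.

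The pattern over the 4 samples was set against the other named usable genes, by the distance between median-scaled log2 signals after each gene's own mean was removed. H2-M2 was closest to Tm9sf1, a transmembrane 9 superfamily gene, at a distance of 0.07, against a median distance of 0.90 to all named genes. Tm9sf1 had m6A ratios of 0.14 in cKO and 0.64 in control and an RNA level difference of -0.11. The next closest to H2-M2 was the hyaluronidase-family gene Hyal3 at 0.27. H2-Q7 was closest to Hyal3 at 0.25 and the glycolytic enzyme gene Gpi1 at 0.26, and H2-M2 was not among its nearest 2. The m6A differences of Hyal3 (-0.13) and Gpi1 (-0.14) were smaller in size than that of H2-Q7 (-0.55). Gsdmd was closest to the myelin gene Mbp at 0.24 and the small heat shock protein gene Hspb7 at 0.28. Mbp had an m6A difference of -0.67 and Hspb7 one of 0.08, opposite in sign to Gsdmd. Mzb1 was closest to the olfactory receptor gene Olfr1307 at 0.15 and to Hspb7 at 0.17. These distances rest on 4 signals that share 2 arrays and describe likeness only.

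The sign of each m6A difference was tied to the scale. Under the authors' deposited table as given, the m6A difference was -1.01 for H2-Q7, -0.997 for H2-M2, -0.90 for Gsdmd and -0.49 for Mzb1, and H2-Q7 then passed 2-fold, together with 13.3% of all usable probes in that direction. When 5 ERCC spike-in probes set the scale of each channel it was 0.09 for H2-Q7, 0.12 for H2-M2, 0.23 for Gsdmd and 0.75 for Mzb1. The position among all probes changed less, and a constant per channel cannot change it. No median scaling, scaling to ERCC or to control probes named SPINKEIN, and medians over all unflagged probes therefore repeat the reported position. The authors' table as given and centred on its medians also share 1 position. Keeping only spots well above background repeats the reported values, since every unflagged spot of the 4 genes had passed. The 13 settings are thus not 13 separate checks. Over 13 settings, the reported one included, H2-Q7 lay between 0.45 and 1.03 below the median m6A difference of all usable probes, with 2.76% to 13.1% of probes below it. H2-M2 lay between 0.48 and 0.94 below that median, with 3.68% to 14.2% of probes below it, and Gsdmd between 0.37 and 0.72 below it, with 7.25% to 18.4% of probes below. Mzb1 lay below the median in 5 settings and above it in 8.

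**Figure D5:**
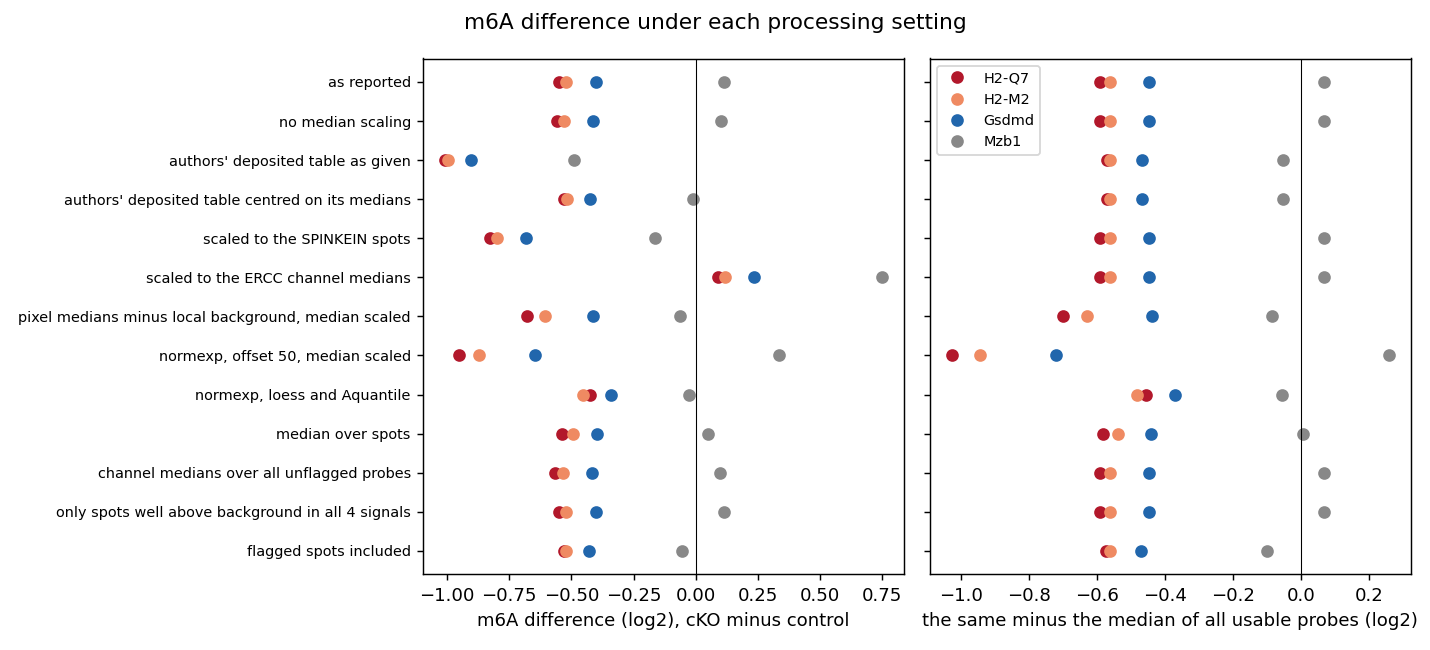
m6A difference (log2, cKO minus control) of the 4 usable genes under the reported setting and 12 others, left as given and right after the median of all usable probes under that setting was subtracted. On the left the ERCC channel medians carry every gene above 0, and on the right H2-Q7, H2-M2 and Gsdmd lie below 0 in all 13 settings. Settings that differ only by a constant per channel fall on the same value on the right by construction.

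For RNA level, Gsdmd was above 0 and above the median of all probes in 13 of 13 settings, between 0.08 and 0.56. H2-M2 was below that median in 13 of 13 settings and below 0 in 12, turning to 0.19 with the ERCC channel medians. H2-Q7 had no stable direction, with 5 settings below 0 and 8 above, and Mzb1 was below 0 in 2 and above in 11.

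Part of the scatter between spots came with the processed values. In control Sup, the SD of log2 signal over unflagged spots was 0.06 for H2-Q7 in processed signals and 0.04 in pixel medians minus local background, 0.07 and 0.02 for H2-M2, and 0.10 and 0.05 for Gsdmd. In control IP these SDs were 0.02 for H2-M2 in processed signals and 0.03 in pixel medians, so the excess was not in every sample. Before any dye normalisation, H2-Q7 had a median of 10432 above local background in cKO IP, against 18691 in control IP, and of 9210 in cKO Sup, against 5509 in control Sup. The same pixel values for Il2 were 16.5 in cKO IP and 21.5 in control IP, and 22.5 in cKO Sup and 17.3 in control Sup.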

How the data were processed

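Per the file headers, spots were quantified by Feature Extraction 11.0.1.1 from Agilent, also listed in the submitters' processing notes. In the deposited scanner files the processed signal is a linear intensity, after local background subtraction and dye normalisation within the array, and the pixel medians of spot and background are raw intensity. Those files also hold 0 or 1 flags, and no signal was saturated in any spot (a count of 0). The authors' deposited table holds log2 values for 48973 probes, each column being log2 of the processed signal minus 1 constant, 12.23 for cKO IP, 11.92 for control IP, 11.36 for cKO Sup and 11.51 for control Sup; its unmapped sample columns numbered 0. No source used here says how the constants were obtained.

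Spots without outlier flags were averaged on the log2 scale, and a probe was usable when at least 0.5 of them were well above background in all 4 signals. Among the array probes only the named ones had repeated spots. Processed signals were scaled by the usable-probe median of their channel, 413 in cKO IP, 474 in control IP, 411 in cKO Sup and 468 in control Sup. The depth of an array is not a count, so the number of arrays limits the precision. A size rule of 2-fold served as the call. The shares over named usable genes rest on the 41 usable genes with a named probe and a symbol. The genes described one by one are the 5 members and, for each usable member, the 2 of those 41 nearest in pattern. Carhsp1 and Nup50 are named only because their m6A differences were like those of the class I pair. The members, lists and settings were chosen with earlier results of these data known. No lower bound was computed for Il2, since each of its signals had some spots above background.

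The package limma 3.58.1 (R 4.3.3) supplied normexp (offset 50), loess and Aquantile; the rest used Python 3.11.15, numpy 2.4.6, pandas 2.3.3 and matplotlib 3.10.9. The calculation of the m6A difference was tested on simulated data with the same spot noise for every probe. The RNA level was not tested in this way, nor was the wider scatter of a dim probe. Accessions were matched to RefSeq symbols of GRCm38.p6, which also gave coordinates and start regions; start regions were found for 3 of the 5 genes.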

Additional observations from a re-analysis of the deposited data

How the results depend on the processing

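The m6A and RNA level differences of H2-Q7, H2-M2, Gsdmd and Mzb1 were recomputed under the 12 other settings, and the RNA level also from each fraction alone. Of these 104 values, 60 moved by less than the spot SD and 44 by more, and the cause was not tested. The 60 include the setting with only spots well above background, which could not move. They also include Mzb1 values held by its wide m6A spot SD of 0.36. Its m6A difference of 0.11 became 0.33 with normexp and -0.17 with SPINKEIN, both counted as moved by less. In the authors' deposited table as given, the m6A differences were -1.01, -0.997, -0.90 and -0.49 and the RNA level differences -0.13, -0.32, 0.085 and -0.088, in the order of genes just named. With the ERCC channel medians the m6A differences were 0.088, 0.12, 0.23 and 0.75 and the RNA level differences 0.40, 0.19, 0.56 and 0.38. With 58 control probes named SPINKEIN, H2-Q7, H2-M2 and Gsdmd stood at -0.83, -0.80 and -0.68 in m6A and at -0.11, -0.29 and 0.12 in RNA level, and with normexp at -0.95, -0.87 and -0.65, and -0.022, -0.17 and 0.20. With loess and Aquantile their RNA levels stood at -0.15, -0.27 and 0.16, and the m6A difference of H2-Q7 at -0.42. Pixel medians minus background gave m6A differences of -0.68 for H2-Q7 and -0.61 for H2-M2. Without median scaling the RNA level differences of the 4 genes were -0.12, -0.31, 0.088 and -0.060. From IP alone the RNA level differences of H2-Q7, H2-M2 and Gsdmd were -0.13, -0.33 and 0.10, and from Sup alone 0.42, 0.19 and 0.51. With flagged spots included, a setting chosen after seeing the data, the m6A difference of Mzb1 was -0.06, so its sign depended on which spots were used. The probes at least 2-fold lower and higher in m6A numbered 1443 and 872 as reported, 5834 and 113 in the authors' table, 3390 and 257 with SPINKEIN, 125 and 10481 with ERCC, 1039 and 165 with normexp and 502 and 495 with loess and Aquantile. At 1.5-fold they numbered 4964 and 4976. Those lower and higher in RNA level numbered 819 and 758 as reported, 1478 and 519 without scaling, 1787 and 407 in the authors' table, 1516 and 655 with SPINKEIN, 230 and 1311 with ERCC, 411 and 383 with normexp, 402 and 369 with loess and Aquantile and 2970 and 2461 at 1.5-fold. Low signal over background limits Mzb1 and Il2. No paired analysis was possible because each genotype has 1 array.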
